A study of Mus musculus with 6 samples.

Results

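Erythroid transcripts are the messages of developing and newly released red blood cells. They were followed through 6 genes: Alas2, Slc4a1, Ahsp, Hba-a1, Hbb-bt and Hbb-b1. The members were all probe sets that the array annotation assigns to any of these genes, including those that also list another haemoglobin gene. This gave 9 of the 45037 tested probe sets, for 5 of the 6 genes; Ahsp was not analysed here. The study measured RNA of microdissected hypothalamus, described as the arcuate part, from 2-week-old mice whose strain is given as a mix of C57Bl/6J, FVB/N and 129. The 3 POMCDicerKO samples came from mice that lack Dicer, the enzyme that cuts microRNA precursors, in Pomc-expressing cells. The 3 control samples carry only the genotype entry Ctrl. The Cre driver, the alleles of the controls, the sex of the mice, the number of animals per sample and any perfusion step are not stated in the labels. Each sample was hybridised to 1 Affymetrix Mouse Genome 430 2.0 array. The samples are called independent, but not whether each was 1 animal or a pool, and p-values measure the spread between these samples.

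Red cells make haemoglobin from alpha and beta globin chains and haem. Mature mammalian red cells have no nucleus, and globin messages persist in reticulocytes, the youngest circulating red cells. Brain tissue holds blood in its vessels, so erythroid messages in a brain sample can come from that blood, and neurons and glia have also been described to make some globin message. Alas2 encodes the erythroid form of the first enzyme of haem synthesis, Slc4a1 the anion exchanger of the red cell membrane (band 3), Hba-a1 an adult alpha globin, and Hbb-bt and Hbb-b1 adult beta globins. Inbred mouse strains carry different adult beta globin haplotypes, with the names Hbb-bs and Hbb-bt used for the one of C57BL/6 and Hbb-b1 and Hbb-b2 for another.

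Haemoglobin genes were largely read together. Probe set 1417184_s_at lists Hbb-bt, Hbb-bs, Hbb-b2 and Hbb-b1, and 3 probe sets list both Hba-a1 and Hba-a2. No value here therefore separates Hbb-bt from Hbb-b1, and only 1453574_at is assigned to Hba-a1 alone. Alas2 had 1 probe set and Slc4a1 had 3.

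The bases before the start of the genes are shown because 7 of the 9 member probe sets shared an order of arrays, with control 2 highest and control 3 next; 1453574_at, the one of Hba-a1 alone, did not. Windows were matched by symbol for 3 of the 6 genes, not for Slc4a1, Ahsp and Hbb-b1. The sequences are from RefSeq (GRCm38.p6), 250 bases long, ending just before the annotated start, 5′ to 3′ on the strand of the gene. Capitals mark 3 motifs on either strand: GATAA, the core bound by GATA factors; CACCC, bound by erythroid Krüppel-like factor; and CCAAT. Alas2 lies at chrX:150547167-150547416 (plus strand), Hba-a1 at chr11:32283422-32283671 (plus strand), Hbb-bt at chr7:103813924-103814173 (minus strand). Tent5c, at chr3:100489193-100489442 (minus strand), is the gene whose array pattern was most like Alas2 among the compared genes that are no members.
Alas2: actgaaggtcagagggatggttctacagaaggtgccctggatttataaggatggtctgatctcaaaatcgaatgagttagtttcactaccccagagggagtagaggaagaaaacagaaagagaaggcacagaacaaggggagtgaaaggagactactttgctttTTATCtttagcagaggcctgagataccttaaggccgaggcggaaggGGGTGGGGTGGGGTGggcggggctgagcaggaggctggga
Hba-a1: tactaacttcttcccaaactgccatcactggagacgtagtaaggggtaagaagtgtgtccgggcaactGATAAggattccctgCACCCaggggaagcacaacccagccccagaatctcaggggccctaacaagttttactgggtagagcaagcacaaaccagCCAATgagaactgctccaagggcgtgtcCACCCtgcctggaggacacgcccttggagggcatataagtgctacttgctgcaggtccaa
Hbb-bt: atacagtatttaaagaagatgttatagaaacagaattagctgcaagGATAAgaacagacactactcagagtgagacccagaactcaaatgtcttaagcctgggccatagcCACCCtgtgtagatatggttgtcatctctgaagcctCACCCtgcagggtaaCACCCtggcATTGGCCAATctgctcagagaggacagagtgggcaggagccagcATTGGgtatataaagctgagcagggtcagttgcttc
Tent5c: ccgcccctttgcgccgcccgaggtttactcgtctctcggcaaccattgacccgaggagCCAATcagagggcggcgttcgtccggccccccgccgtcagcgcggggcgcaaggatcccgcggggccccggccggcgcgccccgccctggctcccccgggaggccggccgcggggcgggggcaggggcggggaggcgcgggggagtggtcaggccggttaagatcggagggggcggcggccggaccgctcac
Of 32851 such windows in the table, 22.6% held GATAA, 52.0% CACCC, 33.8% CCAAT and 3.45% all of them. The Hba-a1 and Hbb-bt windows held all of them. Alas2 held GATAA once, on the opposite strand, and CACCC 3 times on the opposite strand, each next to the last, and no CCAAT. In Hbb-bt 2 CCAAT matches on opposite strands lay side by side without overlap. Tent5c held 1 CCAAT and neither GATAA nor CACCC in this window. The Hba-a1 and Hba-a2 windows shared an identical stretch of 247 bases, against 14 for Hbb-bt and Hbb-bs. These are the longest exact stretches, which any mismatch ends, so they do not measure how alike whole windows are. A match is a description of these letters only.

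Across the series, array medians lay between 6.02 and 6.05 on the log2 scale, and Pearson r across probe sets was 0.995 to 0.997 within groups and 0.994 to 0.997 across groups. Those correlations run across genes, which are no independent replicates. The 2 Dicer1 probe sets differed by 0.018 and 0.09 (log2, POMCDicerKO minus control), and Pomc-expressing cells make up little of such tissue, so these values do not check the labels. Arcuate markers were read well above the low end of the scale, with means of 7.23 to 11.7 over the 6 arrays for the 7 measured here. The Gapdh 3′ minus 5′ probe set difference, a sign of RNA integrity, was -0.022 to -0.011 in POMCDicerKO and 0.041 to 0.064 in controls, without overlap. That of Actb was 1.12 to 1.19 in POMCDicerKO and 1.17 to 1.31 in controls. The part of these differences in the results was not tested. Among the tested probe sets, 0 passed limma's adjusted threshold (0%, adjusted p under 0.05), and 1098 (2.44%) had an unadjusted p under 0.05.

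At 7 of the 9 member probe sets, all 3 POMCDicerKO samples and control 1 read lower than controls 2 and 3. Lower is relative here, as globin probe sets 1428361_x_at, 1452757_s_at and 1417184_s_at read 13.0 to 14.3 across the arrays. At the 7, control 2 was highest and control 3 next. At 6 of the 7, control 1 lay inside the range of the POMCDicerKO arrays, and at the seventh, Slc4a1 1434502_x_at, it was below all of them. The group means were lower in POMCDicerKO at 8 of 9 probe sets, with a median log2 fold change of -0.51 (POMCDicerKO minus control), against 0.001 over all tested probe sets. Of the 9, 0 passed the adjusted threshold of limma (0% of all tested; lowest adjusted p = 1), and 2 had an unadjusted p under 0.05, both lower, where 1.2% of all probe sets were lower at that level. At least 1.5-fold lower were 4 of the 9, against 0.162% of all probe sets. The 9 were read on the same 6 arrays, so they do not count as separate observations.

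**Figure D1:**
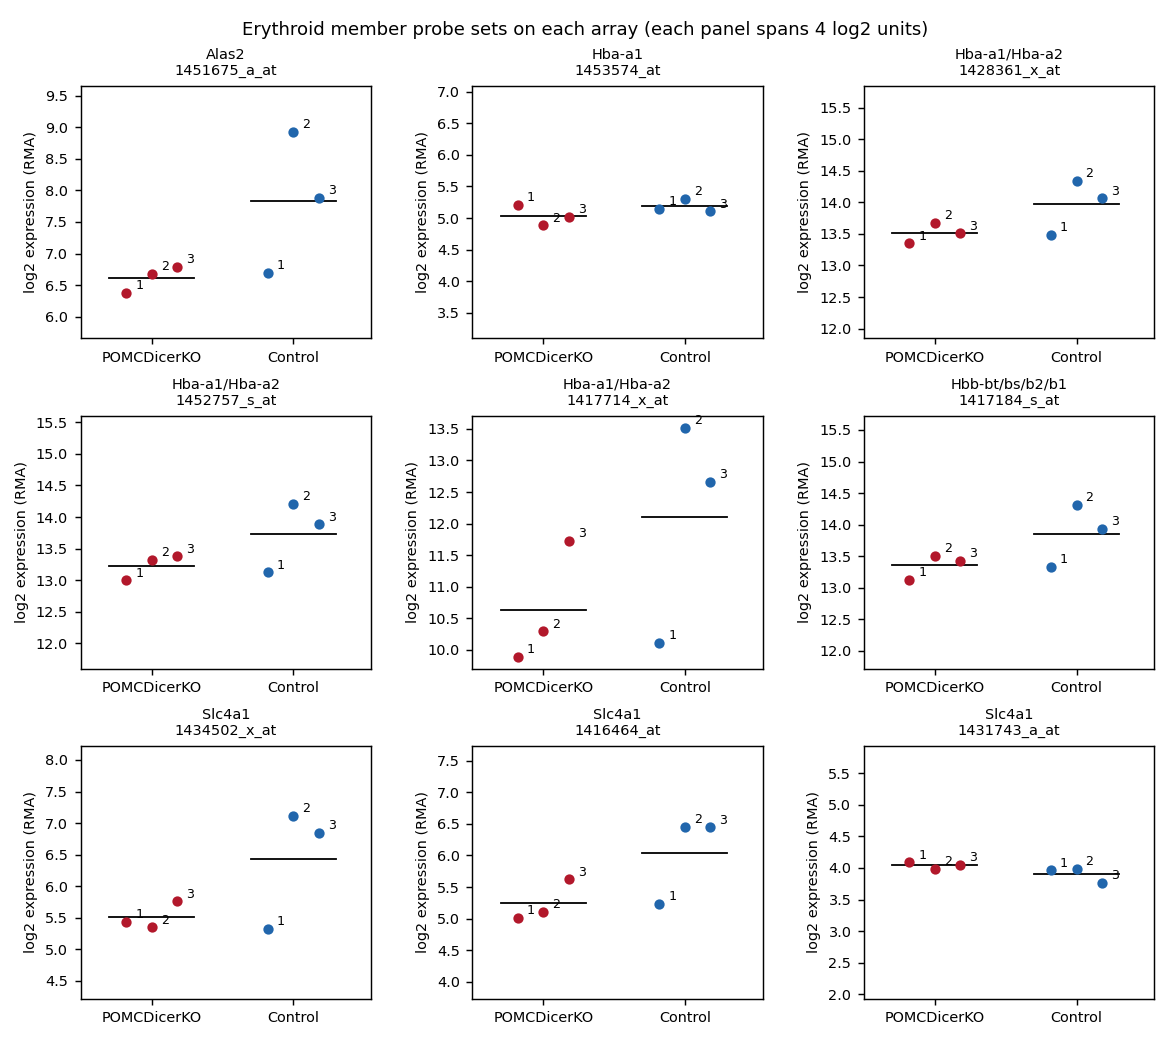
Log2 expression (RMA, vertical axis) of the 9 member probe sets on each array, with POMCDicerKO on the left and Control on the right of each panel; numbers are replicate numbers and lines are group means. In 7 panels the POMCDicerKO arrays and control 1 all sit below controls 2 and 3; every panel spans the same number of log2 units.

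Haem synthesis was represented by Alas2. Its probe set 1451675_a_at read 6.38, 6.68 and 6.79 on the POMCDicerKO arrays, against 6.69, 8.93 and 7.88 on the control arrays. Control 2 was highest, control 3 next, and control 1 lay between POMCDicerKO 2 and 3, so the groups overlapped. Alas2 averaged 6.62 ± 0.21 in POMCDicerKO and 7.83 ± 1.12 in controls (SD, n = 3 each). The log2 fold change was -1.22 with a standard error of 0.48 and a 95% interval of -2.33 to -0.10, or 2.33-fold lower. By limma the adjusted p was 1 (unadjusted p = 0.036), and the two-sided exact permutation p was 0.2, where 3 against 3 arrays allow 0.1 at the least. Without control 2 the log2 fold change was -0.67, and against control 1 alone it was -0.077.

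The red cell anion exchanger Slc4a1 gave the same order at its brighter probe sets, 1434502_x_at and 1416464_at. Their means over the 6 arrays, 5.97 and 5.65, were still below every array median. Probe set 1434502_x_at read 5.44, 5.35 and 5.76 in POMCDicerKO and 5.33, 7.11 and 6.84 in controls 1, 2 and 3. Controls 2 and 3 stood more than 1 log2 unit above the other 4 arrays, and control 1 was the lowest of the 6. Its means were 5.51 ± 0.22 in POMCDicerKO and 6.43 ± 0.96 in controls (SD, n = 3 each), a log2 fold change of -0.91 (standard error 0.42, 95% interval -1.88 to 0.053).

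Probe set 1416464_at read 5.01, 5.11 and 5.62 in POMCDicerKO and 5.24, 6.45 and 6.45 in controls. Again only controls 2 and 3 were above the range of POMCDicerKO. The log2 fold change was -0.80 (standard error 0.33, 95% interval -1.56 to -0.037; unadjusted p = 0.042). The limma adjusted p was 1 for both probe sets, with two-sided exact permutation p of 0.4 and 0.2. With control 1 as the only control the values were 0.19 and 0.009, and without control 1 they were -1.46 and -1.21. The adjusted p of 1434502_x_at was then 0.357, the smallest of any member under any setting tried.

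The Slc4a1 probe set 1431743_a_at did not follow this order. It read 4.09, 3.99 and 4.05 in POMCDicerKO and 3.96, 3.99 and 3.77 in controls, near the low end of the scale, which began at 3.05. Its groups did not overlap, as at 6.36% of all probe sets, and it was the 1 member with a positive log2 fold change, 0.14 (standard error 0.08; limma adjusted p = 1; exact permutation p = 0.1). The 3 Slc4a1 probe sets thus disagreed in sign.

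Adult alpha globin was read by 3 probe sets that list both Hba-a1 and Hba-a2. Probe set 1428361_x_at read 13.3, 13.7 and 13.5 in POMCDicerKO and 13.5, 14.3 and 14.1 in controls. The control 2 value, 14.34, lay at the top of the tested range, which ended at 14.35. Probe set 1452757_s_at read 13.0, 13.3 and 13.4 in POMCDicerKO and 13.1, 14.2 and 13.9 in controls. Both put controls 2 and 3 above all other arrays and control 1 between POMCDicerKO arrays. Their log2 fold changes were -0.46 (standard error 0.20, 95% interval -0.93 to 0.015) and -0.51 (standard error 0.25, 95% interval -1.10 to 0.083).

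The third alpha globin probe set, 1417714_x_at, gave the widest range of all members. It read 9.89, 10.3 and 11.7 in POMCDicerKO and 10.1, 13.5 and 12.7 in controls. POMCDicerKO 3 stood apart from the other 2 POMCDicerKO arrays, between them and the high controls. The lowest and highest arrays differed 12.4-fold, against 1.99-fold at 1428361_x_at and 2.31-fold at 1452757_s_at, which are assigned to the same genes. Whether the upper end of the scale narrowed the brighter probe sets was not tested. The log2 fold change was -1.46 with a standard error of 0.84 and a 95% interval of -3.42 to 0.50. It was -0.75 without control 2 and -2.01 without POMCDicerKO 3. For the 3 probe sets the limma adjusted p was 1 and the exact permutation p 0.3.

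The probe set of Hba-a1 alone, 1453574_at, was dim and nearly level. It read 5.21, 4.88 and 5.02 in POMCDicerKO and 5.15, 5.31 and 5.10 in controls. The groups overlapped, and the log2 fold change was -0.15 (standard error 0.10, 95% interval -0.38 to 0.083; limma adjusted p = 1). Control 3 was not raised in it, in contrast to the 3 shared probe sets.

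Adult beta globin was read by 1417184_s_at, which lists Hbb-bt, Hbb-bs, Hbb-b2 and Hbb-b1. It read 13.1, 13.5 and 13.4 in POMCDicerKO and 13.3, 14.3 and 13.9 in controls. Its means were 13.4 ± 0.20 in POMCDicerKO and 13.9 ± 0.50 in controls (SD, n = 3 each). The order of all 6 arrays was the same as at alpha globin 1428361_x_at. The log2 fold change was -0.50 (standard error 0.23, 95% interval -1.04 to 0.032), or 1.42-fold lower, with a limma adjusted p of 1 and an exact permutation p of 0.3. Against control 1 alone it was 0.027. The control 2 value, 14.31, lay near the top of the tested range, and whether this narrowed the difference was not tested.

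**Figure D2:**
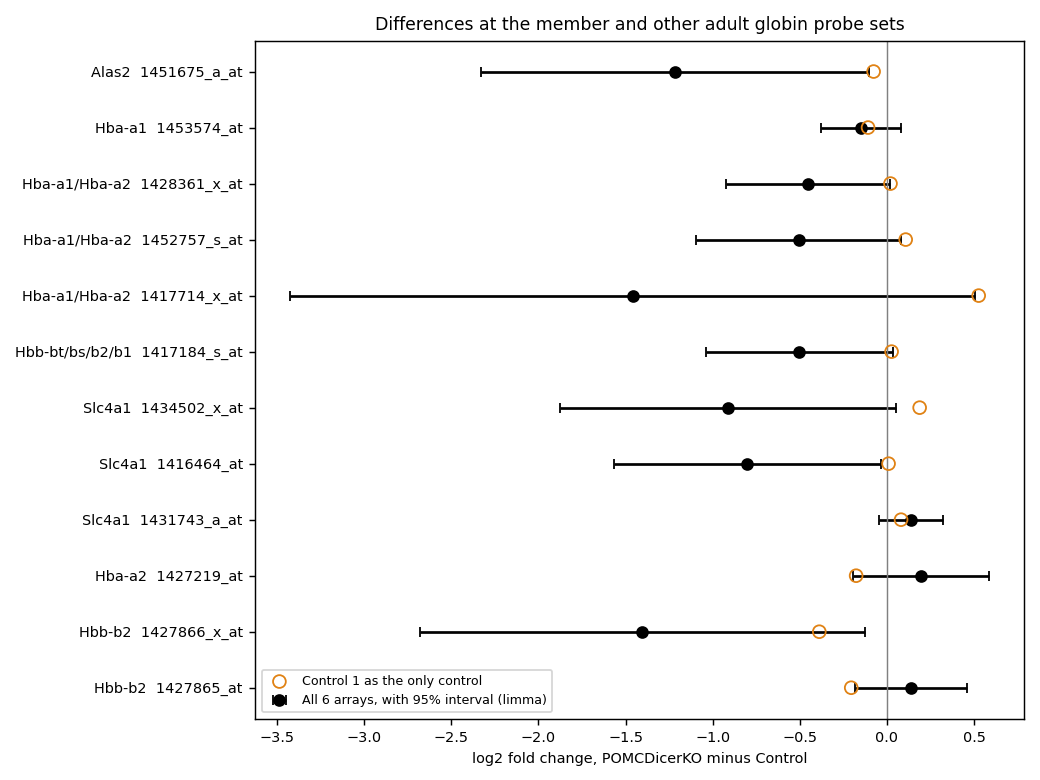
Log2 fold change (horizontal axis, POMCDicerKO minus Control) of the member probe sets and of those of Hba-a2 and Hbb-b2; black points with bars are limma estimates and 95% intervals over 6 arrays, and open orange circles are the POMCDicerKO mean minus control 1. The circles lie near or above 0 where the black points of members reach -0.46 to -1.46, and that of Hbb-b2 1427866_x_at lies at -0.39.

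Neighbouring globin genes that are no members were uneven. Hbb-b2 at 1427866_x_at read 5.81, 6.98 and 6.46 in POMCDicerKO and 6.81, 9.10 and 7.56 in controls, with controls 2 and 3 again highest. Its log2 fold change was -1.40 (standard error 0.55; limma adjusted p = 1), -0.76 without control 2, and -0.39 with control 1 as the only control. The other Hbb-b2 probe set, 1427865_at, went the other way, with 6.85, 6.82 and 6.77 in POMCDicerKO and 7.02, 6.54 and 6.47 in controls, so that controls 2 and 3 were the lowest. Hba-a2 alone, at 1427219_at, likewise was lowest in controls 2 and 3 (4.09 and 4.38) and differed by 0.20. The 7 probe sets of the embryonic globins Hbb-y, Hbb-bh1 and Hba-x read between 3.26 and 5.08 on all arrays, and differed by -0.16 to 0.044.

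The spread between samples of a group was larger in controls at 8 of the 9 members. At the 7 probe sets with the common order, the SD over the 3 POMCDicerKO arrays was 0.16 to 0.97 on the log2 scale, and 80.7% to 99.9% of all tested probe sets had a smaller one. The SD over the 3 controls was 0.44 to 1.77, and 98.5% to 99.99% of probe sets had a smaller one. Over all probe sets, the residual SD had a median of 0.105. POMCDicerKO 1 was the lowest array at 6 of the 7. Within POMCDicerKO, array 3 was highest at 5 of the 7 and array 2 at the other 2.

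**Figure D3:**
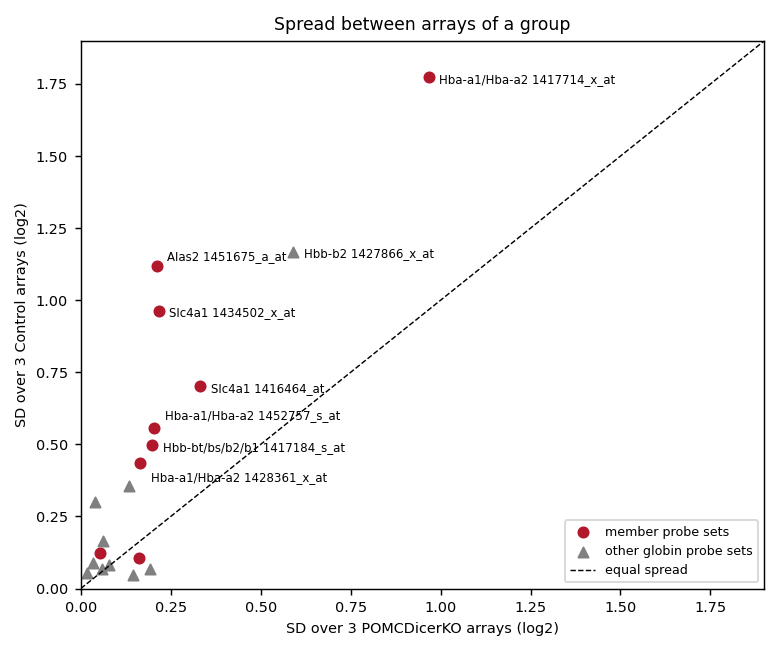
SD over the 3 POMCDicerKO arrays (horizontal axis, log2) and over the 3 Control arrays (vertical axis, log2) for member (red circles) and other globin probe sets (grey triangles), with a dashed line of equal spread. The 7 members with a control SD of 0.44 to 1.77 lie above the line.

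Other erythroid genes were mixed in direction. Of 62 listed genes that are no members, 51 were measured here, 22 of them with a mean under 6, and 32 were lower and 19 higher in POMCDicerKO, where 55.1% of all genes were lower. Their median log2 fold change was -0.043, against -0.010 over all genes with 1 probe set each. None passed limma's threshold (0% of all genes), and 5 had an unadjusted p under 0.05 (Hbb-b2, Tent5c, Ube2l6 and Klf1 lower, Tmod1 higher), where 2.41% of all genes had. In bulk tissue, fewer cells of a type and less RNA per cell cannot be told apart.

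The genes of reticulocytes and red cell maturation gave 13 of 18 lower, with a median of -0.086. Tent5c, a non-canonical poly(A) polymerase, read 6.27, 6.65 and 6.48 in POMCDicerKO and 6.47, 9.07 and 8.06 in controls. Controls 2 and 3 were again highest, with control 1 among the POMCDicerKO arrays, and its log2 fold change was -1.40 (standard error 0.56; limma adjusted p = 1), or -0.79 without control 2. Ube2l6, a ubiquitin-conjugating enzyme, read 4.46, 4.69 and 4.41 in POMCDicerKO and 4.57, 5.43 and 4.95 in controls (-0.46, or -0.24 without control 2). The mitochondrial iron importer Slc25a37 read 7.63, 7.64 and 7.43 in POMCDicerKO and 7.51, 8.34 and 7.88 in controls (-0.34). Both had their highest values in control 2 and then control 3. Bpgm, which makes the red cell metabolite that loosens oxygen from haemoglobin, differed by -0.12, and the transferrin receptor Tfrc by -0.02.

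Haem synthesis enzymes that all cells use gave 6 of 7 lower, with a median of -0.049. Fech, which inserts iron into haem, read 9.05, 8.99 and 9.01 in POMCDicerKO and 9.02, 9.40 and 9.26 in controls (-0.21, limma adjusted p = 1). Ppox was at -0.16, Urod at -0.049 and Alas1, the form of the first enzyme used outside red cells, at -0.032.

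Of 14 red cell membrane and skeleton genes, Slc4a1 among them, 9 had higher and 5 lower means in POMCDicerKO, with a median of 0.016. Tmod1, which caps actin filaments, read 7.80, 7.56 and 7.74 in POMCDicerKO and 7.51, 7.36 and 7.51 in controls, a log2 fold change of 0.24 without overlap (limma adjusted p = 1). Dmtn was at -0.18, the Rh antigen gene Rhd at -0.11 and ankyrin Ank1 at 0.04. Many of these genes are also expressed by neurons.

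Erythroid transcription factors were dim, 7 of the 9 measured having means under 6. Klf1, which activates adult beta globin, read 5.29, 5.31 and 5.32 in POMCDicerKO and 5.49, 5.56 and 5.48 in controls. Its groups did not overlap, and the log2 fold change was -0.21 (standard error 0.061; limma adjusted p = 1). Here control 1 was level with the other controls, unlike at the members. Gfi1b was at -0.19, Nfe2 at -0.13 and Gata1 at 0.094, and the list median was -0.047.

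**Figure D4:**
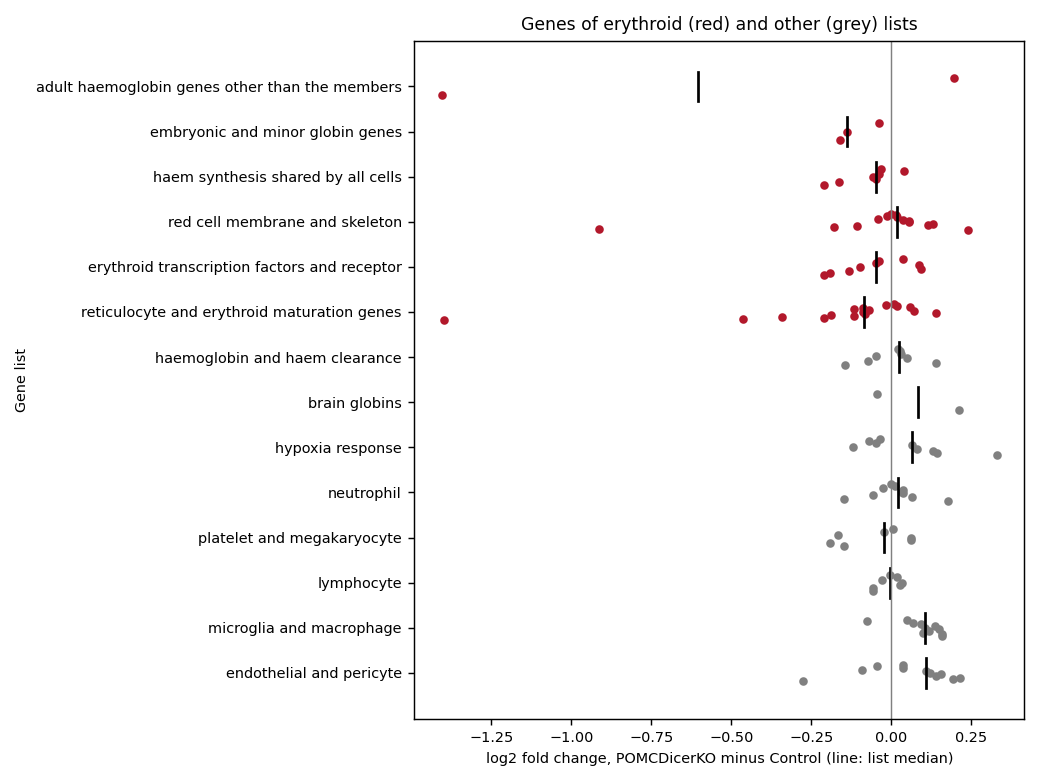
Log2 fold change (horizontal axis, POMCDicerKO minus Control) of each gene of 14 lists (vertical axis), 1 probe set per gene, with list medians as black lines and erythroid lists in red. Most genes of these lists lie near 0, with Hbb-b2 (-1.40), Tent5c (-1.40) and Slc4a1 (-0.91) apart on the left. The meningeal, choroid plexus, myelin, arcuate, pan-neuronal and astrocyte lists are not shown. Ptgds (-2.64), Fmod (-1.79) and Ogn (-1.64) of the meningeal list, all of whose genes were lower, lie below every gene shown.

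None of the lists of other blood cells had its highest means in controls 2 and 3. Means over the 6 arrays were under 6 for all 10 neutrophil genes, 5 of 7 platelet genes and 5 of 7 lymphocyte genes. The neutrophil list means, relative to the control mean, were -0.023, 0.018 and 0.043 in POMCDicerKO and 0.014, 0.009 and -0.023 in controls. For 7 platelet genes they were -0.034, -0.13 and -0.010 in POMCDicerKO and 0.052, 0.068 and -0.12 in controls, and for 7 lymphocyte genes 0.008, -0.07 and 0.032 in POMCDicerKO and 0.062, -0.058 and -0.004 in controls. In these lists the genes with the smallest p were Cxcr2 (0.18), Ppbp (-0.15) and Ms4a1 (-0.056). The same means over the 9 member probe sets were -0.84, -0.70 and -0.42 in POMCDicerKO and -0.74, 0.57 and 0.17 in controls.

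Lists of vessels and meninges ordered the arrays in their own ways, while arcuate markers ordered them partly as the members did. Endothelial and pericyte genes were higher at 8 of 11, at a median of 0.11, with list means of 0.12, -0.028 and 0.069 in POMCDicerKO and 0.015, 0.068 and -0.083 in controls; Pdgfrb was at -0.28. All 11 meningeal and fibroblast genes had lower means, with list means of -0.67, -0.98 and -1.34 in POMCDicerKO and 0.45, 0.48 and -0.93 in controls 1, 2 and 3. Control 1 was thus high in the meningeal list mean and low in the mean of the member probe sets, and control 3 the reverse. Arcuate neuron markers, 7 of 7 lower, stood at -0.66, -0.074 and -0.31 in POMCDicerKO and -0.24, 0.31 and -0.074 in controls. As for the members, control 2 was highest and POMCDicerKO 1 lowest, and control 3 came next to control 2, level with POMCDicerKO 2. Pomc itself was at -0.69. The part of these differences in the erythroid result was not tested. Myelin genes (median 0.47), choroid plexus genes (-0.073), microglial genes (0.11), pan-neuronal genes (0.017) and astrocyte genes (-0.009) had their first-ranked members Ermn at 0.61, Kl at -0.34, Fcgr3 at 0.16, Rbfox3 at 0.20 and Aldh1l1 at -0.13.

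Of 8 measured genes that take up or break down free haemoglobin and haem, 5 were higher, with a median of 0.024. Haptoglobin (Hp) was at 0.14, Blvrb, a biliverdin reductase, at -0.14, and the haem-degrading enzyme Hmox1 at 0.03. Of the brain globins, neuroglobin (Ngb) was at -0.045 and cytoglobin (Cygb) at 0.21. The 9 hypoxia response genes had a median of 0.063, with the vasodilator peptide Adm at 0.33. None of these genes passed limma's threshold.

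Likeness of array pattern was computed for Alas2 and 1417184_s_at only. It was Pearson r over the 6 arrays, as a description, since the points share their arrays and r is driven by controls 2 and 3. The 671 candidates were probe sets with a single symbol that is no member, a mean of at least 6 and an SD of at least 0.3. Member probe sets, those of alpha globin among them, were thus not ranked. For Alas2 the highest were Tent5c (0.993), Fam220a (0.976), Rsad2 at 1421008_at (0.967), Gpr158 (0.962) and Rsad2 at 1436058_at (0.962). For 1417184_s_at they were Gpr158 (0.986), Tent5c (0.982), Coch (0.971), Hbb-b2 1427866_x_at (0.967) and Rsad2 1436058_at (0.952). Rsad2, known as an antiviral protein induced by interferon, read 6.67, 6.79 and 7.22 at 1436058_at in POMCDicerKO and 6.79, 8.33 and 8.03 in controls. Gpr158, a G protein-coupled receptor of neurons, read 5.78, 6.07 and 6.15 in POMCDicerKO and 6.00, 6.69 and 6.48 in controls. Fam220a and Coch were at -0.49 and -0.26.

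**Figure D5:**
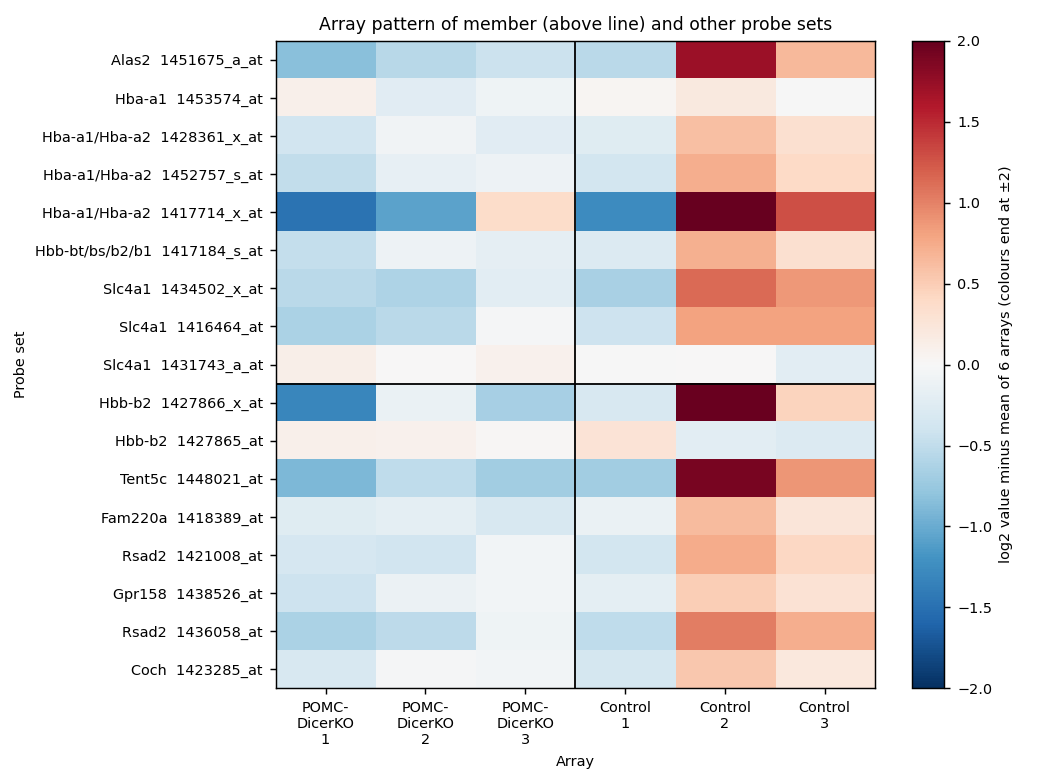
Log2 value minus the mean of the 6 arrays (colour) for the member probe sets (above the line), the Hbb-b2 probe sets and the genes most like Alas2 or 1417184_s_at (rows), on each array (columns, POMCDicerKO left, Control right). Red in control 2 and control 3 and blue in control 1 and POMCDicerKO 1 recur in most rows, while Hba-a1 1453574_at, Slc4a1 1431743_a_at and Hbb-b2 1427865_at do not show it.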

How the data were processed

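RNA of 6 samples was read on 6 arrays. The deposited log2 values, 1 for each probe set on each array, were made by the authors with RMA and the affy package (versions not stated), per the submitters' processing notes. RMA normalises arrays by quantiles, so a difference shared by most transcripts was removed before deposit. Values were used as deposited; 64 AFFX control probe sets were left out and 0 sample columns were unused. The annotation gave 1 symbol to 34945 probe sets, several to 932 and none to 9160; 34741 single symbols were found by Entrez identifier in RefSeq (GRCm38.p6). Probe sets listing several haemoglobin genes are given apart. Each of 18193 genes was represented by its single-symbol probe set of highest mean, and the genes of the 20 lists were read at these probe sets.

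POMCDicerKO was compared with control, groups taken from sample titles, by limma 3.58.1 (lmFit, eBayes) in R 4.3.3 over 45037 probe sets with Benjamini-Hochberg adjustment at 0.05. The two-sided exact permutation test of a single probe set cannot go below 0.1. The number of arrays limits the precision. Up to 3 genes per list (up to 6 in erythroid lists) with the smallest p were named, plus genes most like Alas2 or Hbb-bt; Ank1, Bpgm, Tfrc, Alas1 and Hmox1 were named for their roles after their values were seen. Members and lists were chosen with earlier results of these data known. The scripts were tested on simulated data. Alternatives were median centring, a further quantile normalisation, a minimum mean of 6, a trended robust prior, array weights, no moderation, a replicate block, 1 probe set per gene and leaving out each array. Leaving out controls 2 and 3 together was added after seeing the data. The labels give no batch.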

Additional observations from a re-analysis of the deposited data

How the results depend on the processing

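Of 125 alternative values of the member probe sets, 119 kept their direction and 0 passed the threshold. The minimum mean, prior, no moderation, block and 1 probe set per gene cannot change a fold change. Their share of the 119 says nothing of stability. With control 1 as the only control, a setting chosen after seeing the data in which limma assumes that lone array to vary like the POMCDicerKO arrays, 6 reversed: 1428361_x_at to 0.020, 1452757_s_at to 0.108, 1417714_x_at to 0.527, 1417184_s_at to 0.027, Slc4a1 1434502_x_at to 0.188 and 1416464_at to 0.00932. Alas2 was at -0.077. With single arrays left out, the log2 fold change ran from -1.79 (without control 1) to -0.67 (without control 2) for Alas2, from -2.45 to -0.75 for 1417714_x_at, from -0.69 to -0.27 for 1428361_x_at, from -0.81 to -0.27 for 1452757_s_at, from -0.77 to -0.28 for 1417184_s_at, from -1.46 to -0.57 for 1434502_x_at and from -1.21 to -0.60 for 1416464_at, each lowest without control 1 and highest without control 2. It ran from -0.23 to -0.071 for 1453574_at (without POMCDicerKO 1, and without POMCDicerKO 2) and from 0.069 to 0.18 for Slc4a1 1431743_a_at (without control 3, and without control 2). The median of the other erythroid genes ran from -0.065 to -0.031. Over all probe sets, 1 passed with a trended robust prior, 1 without control 1 and 2 without control 3.

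Of 509 alternative values of named genes that are no members, 497 kept their direction, again counting these settings. With single arrays left out, 26 of 35 such values moved by over 1.5 times. Without control 1 (lowest) and without control 2 (highest), Tent5c was at -2.10 and -0.79, Hbb-b2 1427866_x_at at -1.91 and -0.76, Rsad2 at -1.28 and -0.52 (1436058_at) and -0.84 and -0.28 (1421008_at), Fam220a at -0.69 and -0.30, Ube2l6 at -0.67 and -0.24, Gpr158 at -0.59 and -0.24, Coch at -0.50 and -0.061 and Fech at -0.31 and -0.12. Pomc ran from -0.91 (without control 3) to -0.35 (without control 2), and Ermn from 0.38 (without POMCDicerKO 1) to 0.80 (without POMCDicerKO 2). Without control 2, Cygb was at 0.0085, Rbfox3 at 0.014 and Hbb-y turned to 0.012 (lowest -0.069, without control 3). Against control 1 alone, Hbb-y was at 0.00411, Hba-a2 -0.177, Hbb-b2 1427865_at -0.205, Ppox 0.00245, Urod 0.018, Tent5c 0.000219, Cygb -0.094, Rbfox3 -0.00516, Coch 0.222 and Rsad2 0.113 and 0.099. Beyond the arrays left out, the cause was not tested. Deviations from the group mean correlated, across probe sets, at 0.128, 0.079 and 0.12 between same-numbered samples (replicates 1, 2 and 3). Every POMCDicerKO array correlated best with the control of its number. Whether same-numbered samples shared a processing step was not tested. With a replicate block 0 member probe sets passed (lowest adjusted p = 1), and the balanced design fixes the estimates (Alas2 -1.22). Of the 9, 7 had an unadjusted limma p under 0.05 with the block, against 2 without it. The share of all probe sets at that level with the block was not computed, so the count of 7 cannot be judged.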
